A study of Mus musculus with 12 samples.

Results

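The genes of cholesterol and fatty acid synthesis were followed in the retinal pigment epithelium (RPE) of mice that lack functional MFRP, a protein of the apical RPE membrane. The group was a list of 32 genes: 18 enzymes that build cholesterol from acetyl-CoA, 6 genes of the sterol-sensing system and of sterol transport, 5 enzymes of fatty acid synthesis and desaturation, and the 2 liver X receptors with their target *Mylip*. A gene was kept if its mean over all libraries was at least 10 normalized counts, which 17768 of the 28591 genes in the table passed. All 32 listed genes passed, the weakest of them being *Fdps* with a mean of 171 normalized counts. RNA sequencing covered 6 wild-type (WT) libraries from C57BL/6J mice and 6 rd6 libraries from mice homozygous for the rd6 allele of *Mfrp* (Mfrp rd6/rd6), all 1 mo of age. Each library held total RNA of RPE from both eyes together, collected once the front of the eye and the neural retina had been taken off. The rd6 allele is a germline mutation, so that every tissue of these mice carried it, and the labels name no strain for the rd6 mice, so that genotype and genetic background cannot be told apart. Values are normalized counts, that is, reads counted on a gene divided by a scaling factor of the library.

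Cells make cholesterol by joining acetyl-CoA units into mevalonate, turning mevalonate into isoprenoids and squalene, and closing squalene into sterol rings that are then trimmed. When sterols run low in the endoplasmic reticulum, the escort protein SCAP carries the SREBP transcription factors to the Golgi, where proteases release them to activate the genes of these steps, and INSIG proteins hold SCAP back when sterols are plentiful. Oxidized sterols in turn activate the liver X receptors (LXR), which switch on sterol export and *Srebf1*, the gene of the SREBP form that favors fatty acid synthesis. The RPE takes in large amounts of photoreceptor membrane every day and delivers lipids to the retina, so that it both makes and recycles sterols and fatty acids.

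The libraries held between 28907262 and 33152725 counted reads, and 3 reads corresponded to between 2.71 and 3.32 normalized counts, far under the lowest value of any of the 32 genes in any library (114 normalized counts). *Mfrp* itself ranged from 20442 to 29732 normalized counts in rd6 (median 26281) and from 30132 to 45442 in WT (median 41136), without overlap and with a log2 fold change of -0.63. Most RPE markers were abundant in all libraries. The exceptions were *Best1*, with medians of 17.2 in WT and 24.7 in rd6, and *Slc16a3*, with 97.9 and 213. The sum of the 12 markers was 1495930 to 2240630 normalized counts in WT and 1405300 to 1884650 in rd6. *Ttr*, which had the highest mean, did not pass (log2 fold change 0.25). In rd6, 5 of 12 were lower (*Lrat* -0.98, *Rgr* -0.88, *Rpe65* -0.79, *Rlbp1* -0.46 and *Rrh* -0.36) and 1 was higher (*Slc16a3*, 1.00). Markers of other cells also moved: 17 of 18 microglia and macrophage genes, 8 of 10 endothelial genes and 6 of 10 skeletal muscle genes were higher in rd6, while all 19 rod genes had a log2 fold change below 0 and 5 of them were lower by the test. The summed microglia and macrophage markers ranged from 16958 to 22835 normalized counts in WT and from 29953 to 48197 in rd6. Much of that sum was *Csf1r* (12921 to 18698 in WT and 16200 to 20851 in rd6), which did not pass (log2 fold change 0.12). The median log2 fold change of the 18 genes was 2.78. Of 10 adipocyte markers 4 passed the filter on low values. *Adipoq*, *Plin1* and *Lep* did not exceed 8.72, 11.1 and 1.94 normalized counts in any library, whereas *Plin4* was higher in rd6 (746 to 1146 normalized counts in WT and 1719 to 2962 in rd6) and *Fabp4*, which did not pass the test, ranged from 27.6 to 121 in WT and from 64.0 to 148 in rd6. The sum of the adipocyte markers ranged from 7141 to 11276 in WT and from 8641 to 10836 in rd6. Most of that sum was *Slc7a10* (5904 to 10361 in WT and 6176 to 8728 in rd6), which did not pass the test. The part of the adipocyte markers in the results was not tested. Summed markers of the corneal and conjunctival surface set 3 libraries apart, WT 4 (261061), rd6 5 (128591) and rd6 1 (78314), from the others (4207 to 28396). Called differences are therefore also given without these 3 libraries, a choice made after the marker sums were seen. In bulk RNA of this kind, fewer cells of a type and less RNA per cell cannot be told apart.

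Of the 32 genes, 8 were lower and 1 was higher in the rd6 RPE in limma (*q* below 0.05, the *P* value adjusted by the method of Benjamini and Hochberg over all genes tested), and 23 did not pass. The 8 genes were *Srebf1*, *Srebf2* and *Scap* of the sterol-sensing system, *Hsd17b7* and *Sc5d* of the late sterol steps, and *Acaca*, *Fasn* and *Scd2* of fatty acid synthesis, and the gene that rose was *Mylip*. The lower calls made up 25% of the group, against 11.6% of all genes tested, and the higher call made up 3.12%, against 11.4% of all genes. None of the 32 genes passed the stricter limit that the study also set on the size of a change, 0.81 on the log2 scale, which 4.69% of all genes passed upward and 2.12% downward. For 21 genes the log2 fold change lay below 0 and for 11 above, with a median of -0.10 over the group, compared to 0.0049 over all genes tested. Of all genes tested, 49.25% had a log2 fold change below 0. In *Srebf1*, *Hsd17b7* and *Sc5d* all rd6 libraries lay under the lowest WT library, a pattern found in 5.67% of all genes, and in none of the 32 was every rd6 library above every WT library, which held for 5.77% of all genes. A higher call was added without WT 4 or rd6 3 (*Pmvk*) and without WT 6 (*Nr1h3*), so that 2 genes were higher in these fits.

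**Figure D1:**
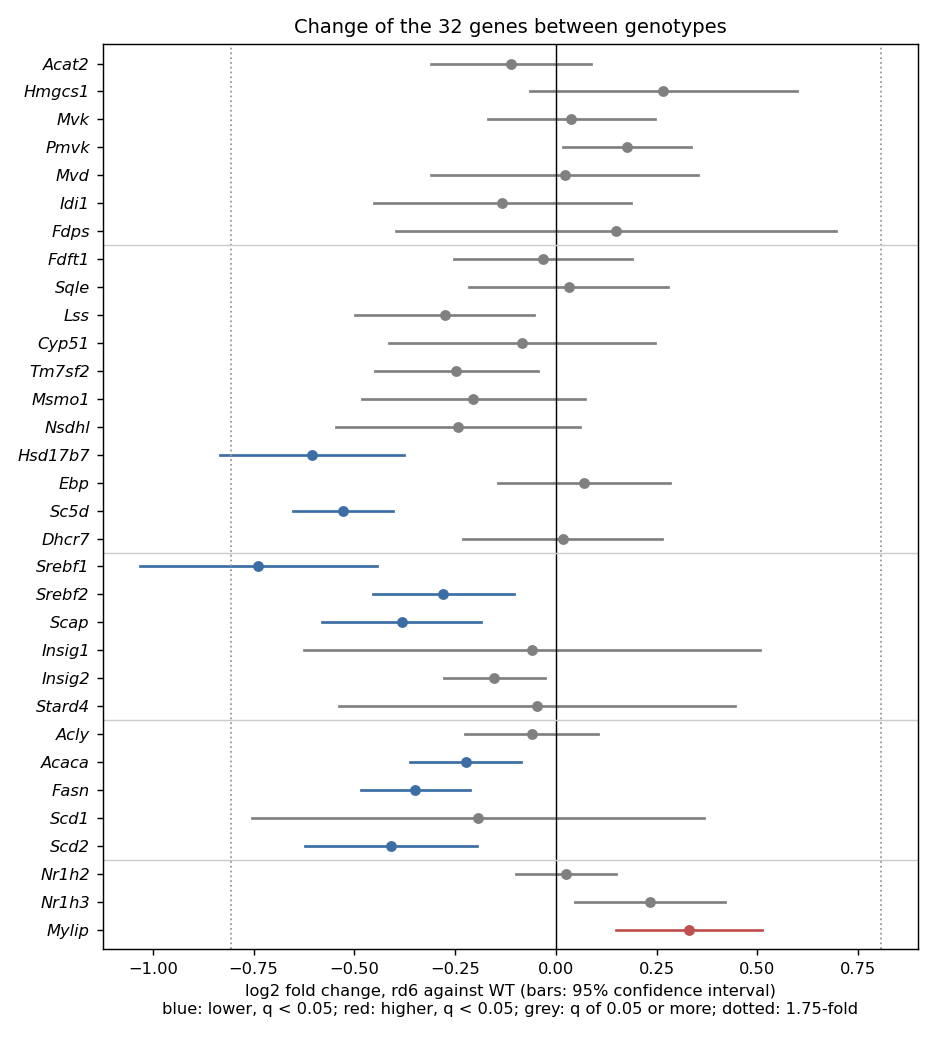
Log2 fold change of each of the 32 genes in rd6 against WT RPE (horizontal axis; points, limma estimate; bars, 95% confidence interval; n = 6 libraries per genotype), in the order of the pathway from top to bottom. Of the 8 lower genes (blue), 3 each belong to the sterol-sensing and the fatty acid group, *Mylip* alone is higher (red), and no point lies beyond the dotted lines at 0.81 on either side.

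The sterol-sensing system held the deepest fall. *Srebf1* (ENSMUSG00000020538, GRCm38 chr11:60199089-60222581, minus strand), which encodes SREBP-1, ranged from 5339 to 8469 normalized counts in WT libraries, with a median of 6791. In rd6 libraries it ranged from 3250 to 5188, with a median of 4105. The 2 sets of libraries were separate, the highest rd6 library (rd6 6) lying just under the lowest WT library (WT 6). The means were 6898 ± 1285 (SD, n = 6) and 4125 ± 715 (SD, n = 6), and the log2 fold change was -0.74 (SE 0.14, *q* = 0.00185 in limma).

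*Srebf2* (ENSMUSG00000022463, chr15:82147181-82205379, plus strand) encodes SREBP-2, the form that favors the cholesterol genes. It lay between 4834 and 5675 normalized counts in WT (median 5189) and between 3864 and 5257 in rd6 (median 4020). Only rd6 6 entered the WT range, and rd6 5 fell short of it by less than 1 normalized count. The means of 5205 ± 321 and 4314 ± 590 (SD, n = 6 each) gave a log2 fold change of -0.28 (SE 0.08, *q* = 0.0254 in limma). This call was fragile: it was lost in 7 of 22 alternatives, 5 of which left out a single library (WT 1, WT 2, rd6 1, rd6 2 or rd6 3), with *q* between 0.055 and 0.0585 without them.

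*Scap* (ENSMUSG00000032485, chr9:110333288-110384950, plus strand), the escort of both SREBP forms, ranged from 6650 to 9764 normalized counts in WT (median 8983) and from 6001 to 7730 in rd6 (median 6434). WT 4, the library with the most corneal RNA, was the only WT library inside the rd6 range. The means were 8680 ± 1083 and 6633 ± 648 (SD, n = 6 each), and the log2 fold change was -0.38 (SE 0.09, *q* = 0.00923 in limma). On 13.2% of its exon length *Scap* overlaps 5830462I19Rik of the opposite strand, and no source says if reads were counted by strand, so that its level is less certain than that of the other genes of this group.

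The other members of the system did not pass the test. *Insig1*, which retains SCAP in the endoplasmic reticulum and is itself an SREBP target, was the most variable gene of the 32 in WT: it ranged from 1693 to 4980 normalized counts in WT (median 2624) and from 2141 to 3670 in rd6 (median 2348). With means of 2956 ± 1309 and 2688 ± 690 (SD, n = 6 each), its log2 fold change of -0.06 had a 95% confidence interval from -0.62 to 0.51. The rd6 libraries lay wholly inside the WT range, and a change of about the size seen for *Srebf2* could not have been resolved. Its relative *Insig2* was far steadier, with means of 2257 ± 70.8 in WT and 2035 ± 177 in rd6 and a log2 fold change of -0.15 (SE 0.06, *q* = 0.0746 in limma, and 0.0361 without rd6 4). *Stard4*, which moves cholesterol between membranes, had means of 310 ± 111 and 289 ± 59.2 normalized counts (SD, n = 6 each) and a log2 fold change of -0.05.

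Because *Srebf1* and *Srebf2* come from separate genes whose products divide fatty acid and cholesterol synthesis between them, their ratio within a library was compared, which does not depend on the scaling of that library. The ratio of *Srebf1* to *Srebf2* ranged from 1.09 to 1.51 in WT libraries (median 1.36) and from 0.841 to 1.05 in rd6 libraries (median 0.966). The ranges did not overlap. The difference of the mean log2 ratios was -0.46, with a 2-sided exact permutation *P* = 0.002165, the smallest that 6 against 6 libraries allow, and 0.006494 after adjustment over the 3 ratios compared. For the desaturases, *Scd1* to *Scd2* gave 0.0436 ± 0.0083 in WT and 0.0533 ± 0.0224 in rd6 (SD, n = 6 each, exact permutation *P* = 0.437). For the liver X receptors, *Nr1h3* to *Nr1h2* gave 0.115 ± 0.0153 in WT and 0.132 ± 0.0124 in rd6 (SD, n = 6 each). The *P* value of that comparison was 0.0476 and rose to 0.0714 after adjustment (exact permutation test), so that it did not pass, although without WT 6 the adjusted value was 0.0162.

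**Figure D2:**
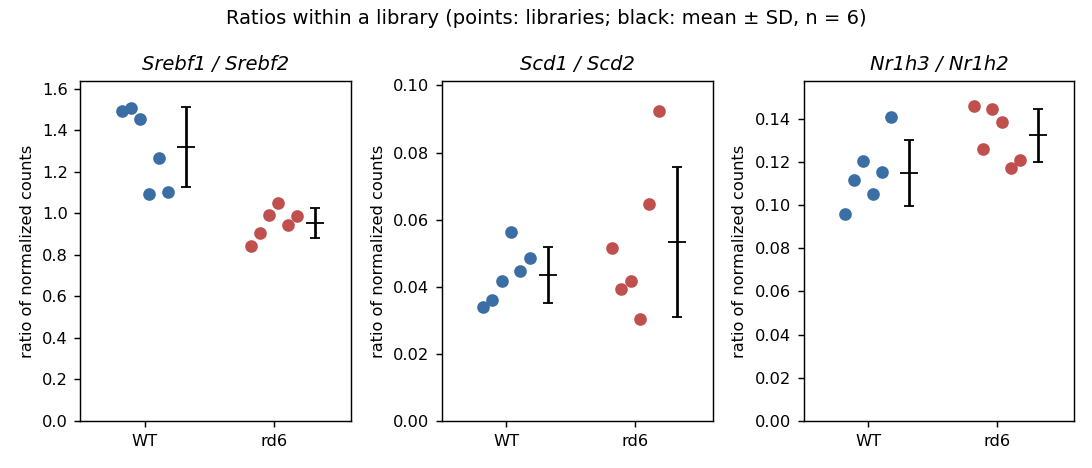
Ratio of normalized counts within each library (vertical axis, linear from 0) for *Srebf1* to *Srebf2*, *Scd1* to *Scd2* and *Nr1h3* to *Nr1h2* in WT (blue) and rd6 (red); points are libraries and black bars are mean ± SD, n = 6. The *Srebf1* to *Srebf2* ratios of rd6 libraries all sit below those of WT libraries, whereas the other 2 pairs overlap.

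None of the 7 enzymes that lead from acetyl-CoA to farnesyl diphosphate passed the test, and their median log2 fold change was 0.04. *Acat2*, the cytosolic thiolase that joins the first acetyl-CoA units, had means of 784 ± 45.8 normalized counts in WT and 731 ± 112 in rd6 (log2 fold change -0.11). *Hmgcs1*, which makes HMG-CoA, had means of 3736 ± 1001 in WT and 4381 ± 460 in rd6. Its log2 fold change of 0.27 was the highest of these enzymes but came with a 95% confidence interval from -0.06 to 0.60. The mevalonate kinase genes followed: *Mvk* with 673 ± 57 and 695 ± 103 (log2 fold change 0.04), and *Pmvk*, for phosphomevalonate kinase, with 849 ± 61.7 and 962 ± 101 (0.18, SE 0.07, *q* = 0.103 in limma, and 0.0412 without WT 4 or 0.0445 without rd6 3). *Mvd*, the decarboxylase, had means of 568 ± 119 and 578 ± 128 (log2 fold change 0.02). *Idi1*, the isomerase that readies isoprene units, had 1463 ± 301 in WT and 1331 ± 262 in rd6 (log2 fold change -0.13). *Fdps*, which condenses them into farnesyl diphosphate, had 163 ± 70.4 and 179 ± 65.5 (log2 fold change 0.15). Its mean was raised in each genotype by a single library, WT 4 and rd6 5, at 305 normalized counts each, the 2 libraries with the most corneal RNA. *Fdps* shares 26.7% of its exon length with Gm43738 on the same strand, so that its counts may be split.

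Among the 11 enzymes from squalene to cholesterol, 2 fell (18.2%, against 11.6% of all genes) and 9 did not pass, and the median log2 fold change was -0.21. *Sc5d* (ENSMUSG00000032018, chr9:42251595-42264256, minus strand), the desaturase that sets a double bond into the sterol ring system, had the smallest *q* of the 32 genes. It ranged from 3001 to 3438 normalized counts in WT (median 3227) and from 2031 to 2472 in rd6 (median 2196). The gap between the genotypes exceeded the whole range within either of them. The means of 3221 ± 153 and 2236 ± 186 (SD, n = 6 each) gave a log2 fold change of -0.53 (SE 0.06, *q* = 3.35e-05 in limma), that is, 1.44-fold lower.

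*Hsd17b7* (ENSMUSG00000026675, chr1:169949535-169969241, minus strand), the ketoreductase of the demethylation steps, ranged from 560 to 806 normalized counts in WT (median 611) and from 367 to 486 in rd6 (median 410). Again no library of either genotype entered the range of the other. The means were 645 ± 97.3 and 422 ± 51.6 (SD, n = 6 each), and the log2 fold change was -0.61 (SE 0.11, *q* = 0.00127 in limma), a 1.52-fold lower level. The 2 partners of *Hsd17b7* in the removal of the sterol methyl groups also had negative estimates, without passing: the methyl sterol oxidase *Msmo1* had means of 4007 ± 652 and 3488 ± 651 (log2 fold change -0.21), and the decarboxylating dehydrogenase *Nsdhl* had means of 871 ± 139 and 743 ± 168 (-0.24, *q* = 0.237 in limma). Without the 3 libraries rich in corneal RNA, *Nsdhl* reached a log2 fold change of -0.31 (*q* = 0.0447).

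The remaining sterol enzymes were close to level or fell short of the threshold. *Fdft1*, which makes squalene, had means of 3737 ± 385 in WT and 3674 ± 584 in rd6 (log2 fold change -0.03). *Sqle*, the epoxidase that acts on squalene and a control point of the pathway, had 2451 ± 397 and 2497 ± 341 (0.03). Ring closure by *Lss* gave means of 1289 ± 209 and 1057 ± 101 (log2 fold change -0.28, SE 0.10, *q* = 0.0709 in limma), which passed under DESeq2 (*q* = 0.0449) and in 3 fits that left out a library (WT 5, WT 6 or rd6 5, *q* from 0.0456 to 0.046). The demethylase *Cyp51* had means of 1571 ± 299 and 1487 ± 323 (-0.08), and the ring reductase *Tm7sf2* had 492 ± 66.1 and 413 ± 35.8 (-0.25, SE 0.09, *q* = 0.0749 in limma). *Tm7sf2* passed without WT 3 (*q* = 0.0284), and it shares 12.1% of its exon length with *Vps51* on the same strand. The isomerase *Ebp* had means of 401 ± 47.6 and 421 ± 52.9 (0.07), and *Dhcr7*, the last step of a branch, had 979 ± 166 and 986 ± 124 (0.02). Exons of the opposite strand overlap *Fdft1* (*Ctsb*, 18.3% of its exon length), *Hmgcs1* (12.1%), *Idi1* (9.2%), *Cyp51* (3.8%) and *Lss* (3.5%), which makes these levels uncertain to that extent.

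All 5 genes of fatty acid synthesis had log2 fold changes below 0, and 3 of them fell (60%, against 11.6% of all genes). *Fasn* (ENSMUSG00000025153, chr11:120805846-120824547, minus strand), the synthase that builds palmitate, ranged from 3852 to 4382 normalized counts in WT (median 4252) and from 3042 to 3894 in rd6 (median 3135). Only rd6 5 reached the WT range, where it passed WT 2. The means were 4176 ± 195 and 3289 ± 330 (SD, n = 6 each), with a log2 fold change of -0.35 (SE 0.06, *q* = 0.00159 in limma).

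*Scd2* (ENSMUSG00000025203, chr19:44293674-44306864, plus strand), a stearoyl-CoA desaturase that introduces the double bond of oleate, was by far the most abundant of the 32 genes. It ranged from 23157 to 31378 normalized counts in WT (median 24241) and from 17452 to 23326 in rd6 (median 19191). The ranges touched only where rd6 6 lay above WT 3. The means were 26128 ± 3517 and 19638 ± 2365 (SD, n = 6 each), with a log2 fold change of -0.41 (SE 0.10, *q* = 0.00964 in limma). Its neighbor and paralog *Scd1* had means of 1120 ± 140 and 1081 ± 592, and a log2 fold change of -0.19 with a 95% confidence interval from -0.75 to 0.37. In WT *Scd1* ranged from 967 to 1376 (median 1076), whereas the rd6 libraries spread from 613 to 2157 (median 829). Of the rd6 libraries, 4 lay below every WT library, while rd6 5 (1368) was within the WT range and rd6 6 (2157) was above it. Reads from stretches that are alike in *Scd1* and *Scd2* could have been assigned to either.

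*Acaca* (ENSMUSG00000020532, chr11:84129672-84401651, plus strand), the carboxylase that commits acetyl-CoA to fatty acids, ranged from 1267 to 1610 normalized counts in WT (median 1519) and from 1170 to 1365 in rd6 (median 1267). Of the WT libraries only WT 2 lay within the rd6 range. The means were 1475 ± 131 and 1260 ± 69.4 (SD, n = 6 each), with a log2 fold change of -0.22 (SE 0.06, *q* = 0.0232 in limma). The call was lost in 4 of 22 alternatives, including those without WT 3, WT 6 or rd6 2 (*q* = 0.055, 0.0512 and 0.0546). *Acly*, which supplies the acetyl-CoA by cleaving citrate, had means of 3890 ± 531 and 3709 ± 189 and a log2 fold change of -0.06, with WT 4 (4946) above all other libraries.

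**Figure D3:**
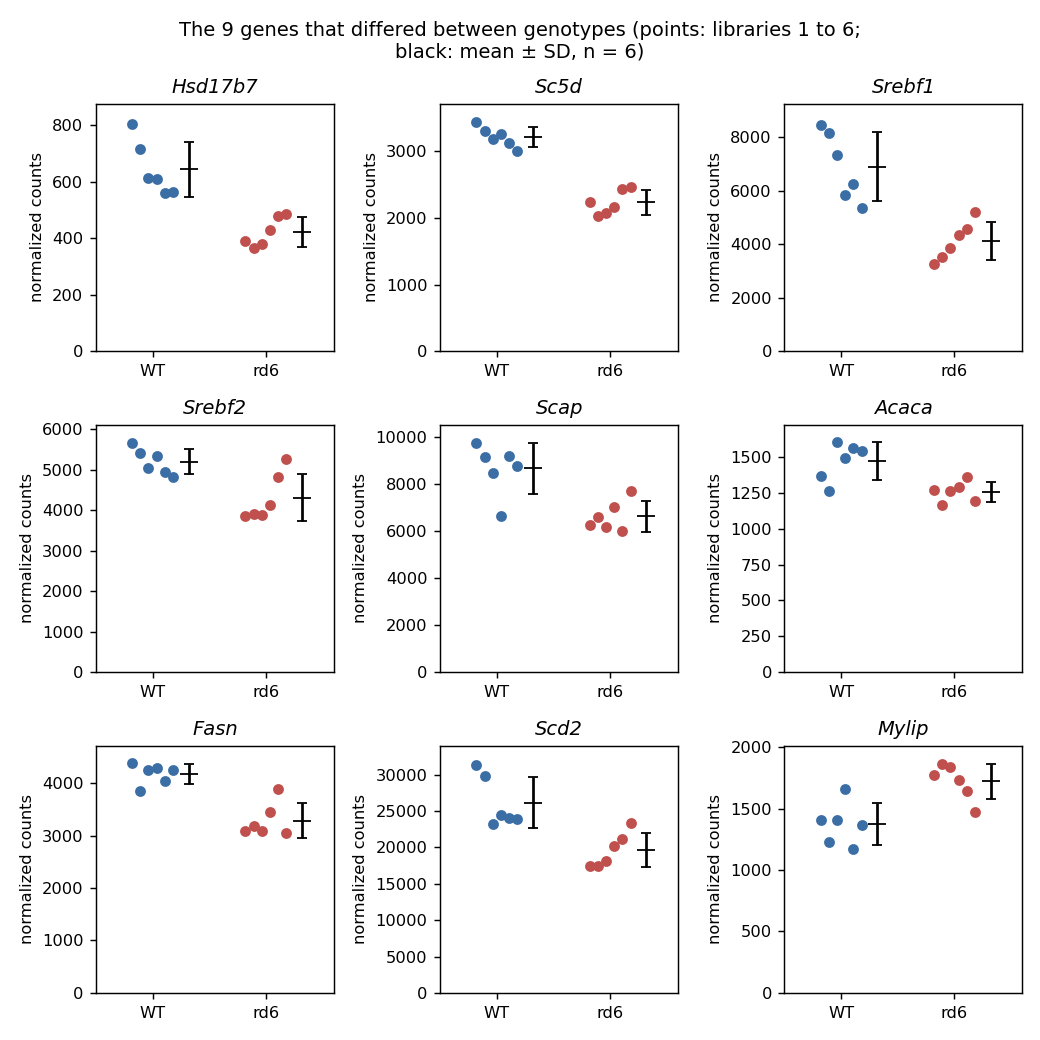
Normalized counts (vertical axes, linear from 0) of the 9 genes that passed the test, in WT (blue) and rd6 (red); points are libraries and black bars are mean ± SD, n = 6. The rd6 points lie wholly below the WT points for *Hsd17b7*, *Sc5d* and *Srebf1*, while the genotypes overlap in the other 6 genes.

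Of the 2 liver X receptor genes and *Mylip*, only *Mylip* passed, and it rose. *Mylip* (ENSMUSG00000038175, chr13:45389742-45412022, plus strand), a ubiquitin ligase that marks lipoprotein receptors for degradation and an LXR target, ranged from 1172 to 1660 normalized counts in WT (median 1384) and from 1473 to 1863 in rd6 (median 1754). Apart from WT 4, which exceeded rd6 5 and rd6 6, every WT library was below every rd6 library. The means were 1374 ± 170 and 1721 ± 144 (SD, n = 6 each), with a log2 fold change of 0.33 (SE 0.08, *q* = 0.013 in limma), a 1.26-fold rise. *Nr1h3*, which encodes the LXRα receptor found mostly in macrophages, liver and fat, ranged from 172 to 251 (median 211) in WT and from 234 to 259 (median 252) in rd6. With means of 212 ± 25.7 and 248 ± 10.6, its log2 fold change of 0.23 (SE 0.09) did not pass (*q* = 0.0692 in limma, and 0.0286 without WT 6). The broadly expressed *Nr1h2*, for LXRβ, ranged from 1768 to 1959 (median 1836) in WT and from 1712 to 2145 (median 1845) in rd6. Its means were 1850 ± 78.4 and 1887 ± 163, with a log2 fold change of 0.02 and a 95% confidence interval from -0.10 to 0.15. The microglia and macrophage markers, cells in which *Nr1h3* is active, had a higher sum in each rd6 library than in any WT library, and their part in these values was not tested.

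Without the 3 libraries rich in corneal RNA, all 9 calls held and the log2 fold changes stayed close to those over 12 libraries. They were -0.74 for *Srebf1*, -0.64 for *Hsd17b7*, -0.56 for *Sc5d*, -0.42 for *Scd2*, -0.40 for *Scap*, -0.38 for *Fasn*, -0.28 for *Srebf2*, -0.25 for *Acaca* and 0.39 for *Mylip*. The *q* of *Srebf2* was then 0.0497, at the edge of the threshold. With *Nsdhl*, 9 genes were lower in that fit.

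Levels were also compared between genes after division by the summed exon length, as normalized counts per kilobase. In WT RPE *Scd2* led with 4782 ± 644, followed by *Srebf1* with 1224 ± 228, *Scap* with 1166 ± 145 and *Insig1* with 956 ± 423 (SD, n = 6 each). *Srebf1*, *Scap* and *Insig1* differed by less than their spread. Among the enzymes of cholesterol synthesis *Fdft1* (884 ± 91.1), *Hmgcs1* (813 ± 218), *Sc5d* (662 ± 31.4) and *Msmo1* (652 ± 106) stood highest, and *Fdps* was at the bottom of all 32 with 38.8 ± 16.7. In rd6 RPE *Scd2* was again first with 3594 ± 433 and *Fdps* last with 42.6 ± 15.6. *Srebf1* moved from rank 2 to rank 6 (732 ± 127), while *Hmgcs1* moved from rank 6 to rank 2 (954 ± 100). In rd6 *Hmgcs1* differed from *Scap* (891 ± 87), *Fdft1* (869 ± 138) and *Insig1* (869 ± 223) by less than their spread. Its change between genotypes did not pass the test (*q* = 0.236 in limma). *Sc5d* moved from rank 9 to rank 14.

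Apart from genotype, many of the 18 cholesterol enzymes had their extremes in the same libraries, which is given as a description without a test. WT 1 was the highest WT library in 12 enzymes and WT 4 in 5, while WT 6 was the lowest in 8 and WT 3 in 6. Among the rd6 libraries, rd6 5 and rd6 6 were the highest in 9 enzymes each, and rd6 3 was the lowest in 9 and rd6 1 in 6. Not all enzymes followed. *Ebp* was lower in WT 1 (364 normalized counts) than in WT 6 (423), *Fdft1* was lowest among WT libraries in WT 4 (3174), where *Fdps*, *Nsdhl*, *Pmvk*, *Sqle* and *Ebp* were highest, and *Sc5d* hardly varied in WT. Relative to the WT mean, the geometric mean of the 18 enzymes reached 1.14 in WT 1 and 0.861 in WT 6, and 1.11 in rd6 5 and 0.80 in rd6 3. Their summed normalized counts ranged from 23934 to 33422 in WT (median 27216) and from 22899 to 30401 in rd6 (median 25327). The ranges overlapped, although rd6 1, rd6 2 and rd6 3 lay below the lowest WT library and WT 1 lay above the highest rd6 library.

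*Insig1* ranged from 1.68 times the WT mean in WT 1 to 0.573 times in WT 6, and from 0.724 in rd6 1 to 1.24 in rd6 5. *Hmgcs1* ranged from 1.40 in WT 1 to 0.719 in WT 6, and from 1.05 in rd6 3 to 1.32 in rd6 5. *Stard4* had its WT extremes in the same libraries (1.40 in WT 1 and 0.613 in WT 6) and was likewise highest among rd6 libraries in rd6 5 (1.17). It parted from the enzymes in rd6 1, where it was at 1.15 and they stood at 0.846, and in rd6 6, where it was at 0.80 and they stood at 1.05. *Insig2*, whose known control differs from that of *Insig1*, stayed between 0.955 and 1.04 in WT and ranged from 0.767 in rd6 5 to 0.999 in rd6 4. The coefficient of variation among WT libraries was 44.3% for *Insig1*, 43.2% for *Fdps*, whose spread came from WT 4, 35.7% for *Stard4* and 26.8% for *Hmgcs1*, against a median of 13.5% over all genes tested, and 3.14% for *Insig2* and 4.74% for *Sc5d*. *Srebf1* was at 1.23 times the WT mean in WT 1 and 0.774 times in WT 6. WT 1 and WT 6 were close in total reads (31598559 and 33152725) and in summed RPE markers (1976300 and 2071130 normalized counts), and their corneal markers summed to 4990 and 10081 normalized counts. Skeletal muscle markers were at 16095 normalized counts in WT 1, the lowest of all libraries, and at 33671 in WT 6. The part of these differences in the pattern was not tested.

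**Figure D4:**
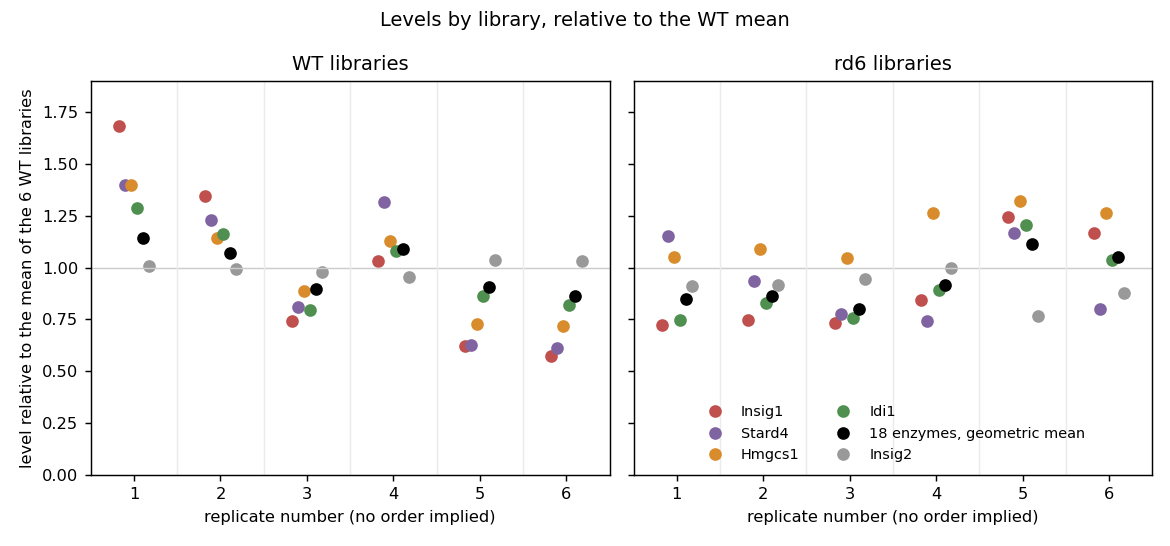
Level of *Insig1*, *Stard4*, *Hmgcs1*, *Idi1*, *Insig2* and of the geometric mean of the 18 cholesterol enzymes in each library, relative to the mean of the 6 WT libraries (vertical axis, linear from 0), for WT (left) and rd6 (right); 1 point per gene and library. In WT the colored and black points are high in WT 1 and low in WT 5 and WT 6 while *Insig2* (gray) stays near 1, and in rd6 *Stard4* parts from the enzymes in rd6 1 and rd6 6 and *Insig2* drops to 0.767 in rd6 5.

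**Figure D5:**
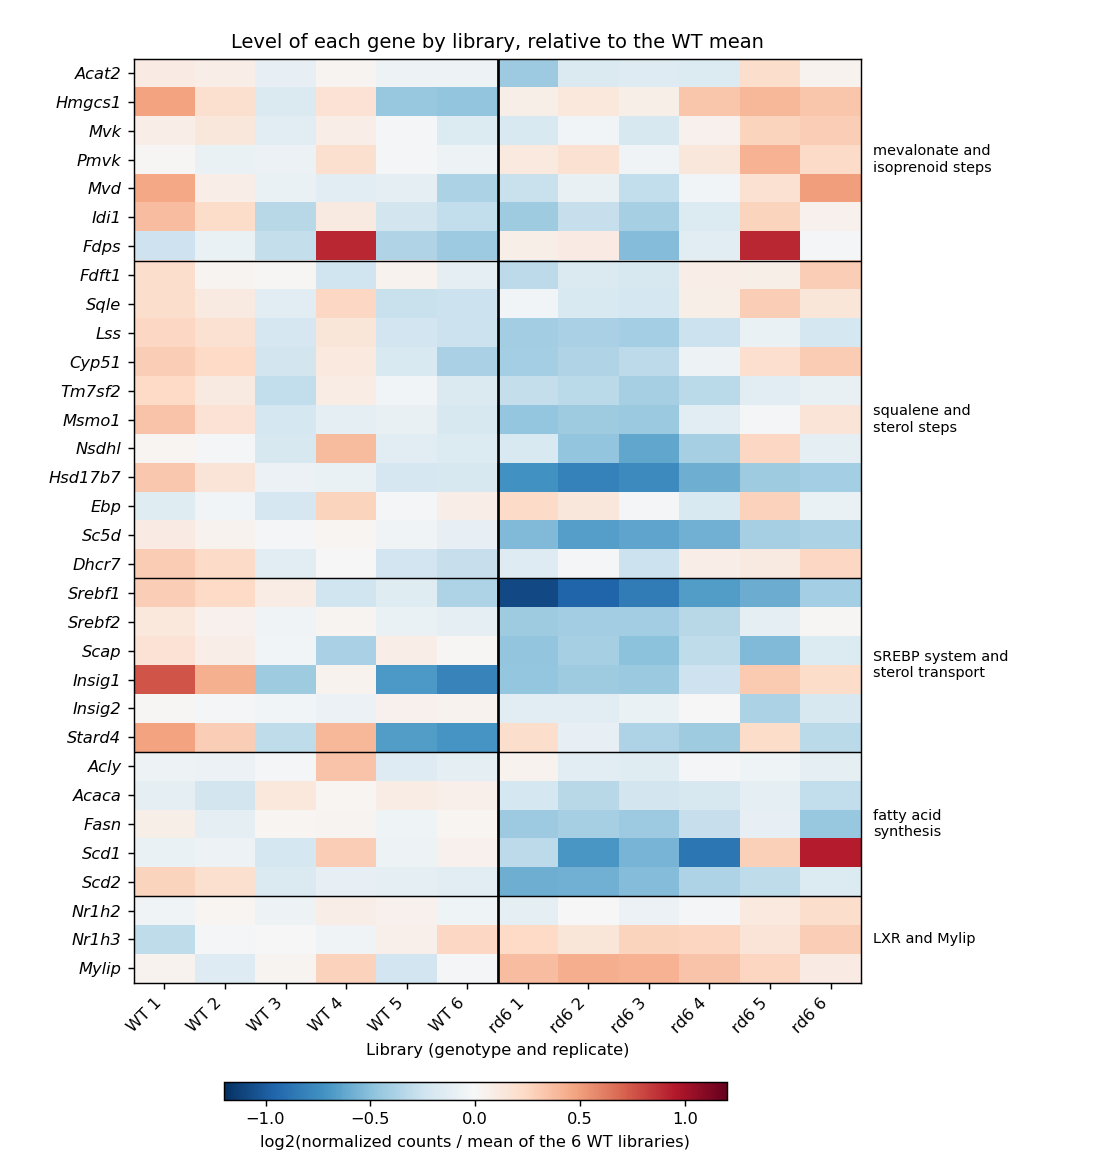
Level of each of the 32 genes in each of the 12 libraries as log2 of the ratio to the WT mean (color scale; blue, lower; red, higher), with genes in the order of the pathway. All rd6 columns lie below the WT mean for *Hsd17b7*, *Sc5d* and *Srebf1*, and also for *Scap*, *Scd2*, *Fasn*, *Acaca*, *Lss*, *Tm7sf2* and, narrowly, *Insig2*. *Insig1*, *Fdps* and *Stard4* vary most among the WT libraries.

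The promoters of 4 of these genes are shown for 2 genes that varied widely between WT libraries (*Hmgcs1* and *Insig1*) and 2 enzymes that fell in rd6 (*Sc5d* and *Hsd17b7*), a choice made after their values were seen. Each line is the 250 bases before the transcription start annotated by RefSeq on GRCm38.p6, 5′ to 3′ on the strand of the gene, at chr13:119690101-119690350 (plus), chr5:28071162-28071411 (plus), chr9:42264301-42264550 (minus) and chr1:169969206-169969455 (minus). Capitals mark letters of the motifs TCACNCCAC (the core of the sterol regulatory element bound by SREBP), CCAAT (NF-Y), CACGTG (E-box) and GGGCGG (Sp1) on either strand, for matches that lie wholly within the 250 bases. A GGGCGG of *Sc5d* that begins with its last 3 letters crosses the start and is not marked.
Hmgcs1: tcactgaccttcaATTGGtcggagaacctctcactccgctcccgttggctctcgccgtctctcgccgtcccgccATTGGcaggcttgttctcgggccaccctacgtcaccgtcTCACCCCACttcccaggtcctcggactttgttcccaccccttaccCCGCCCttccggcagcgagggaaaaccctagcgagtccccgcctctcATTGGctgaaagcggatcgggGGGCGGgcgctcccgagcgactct
Insig1: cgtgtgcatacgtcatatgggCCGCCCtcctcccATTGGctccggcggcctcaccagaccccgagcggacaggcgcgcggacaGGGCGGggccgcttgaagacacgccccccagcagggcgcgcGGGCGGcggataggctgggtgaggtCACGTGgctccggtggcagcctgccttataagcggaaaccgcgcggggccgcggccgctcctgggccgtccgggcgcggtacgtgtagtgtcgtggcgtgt
Sc5d: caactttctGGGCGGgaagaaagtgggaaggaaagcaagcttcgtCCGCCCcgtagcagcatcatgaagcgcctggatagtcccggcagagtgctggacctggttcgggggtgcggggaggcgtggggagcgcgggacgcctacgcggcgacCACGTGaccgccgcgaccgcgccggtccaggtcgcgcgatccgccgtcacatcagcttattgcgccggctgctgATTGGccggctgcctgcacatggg
Hsd17b7: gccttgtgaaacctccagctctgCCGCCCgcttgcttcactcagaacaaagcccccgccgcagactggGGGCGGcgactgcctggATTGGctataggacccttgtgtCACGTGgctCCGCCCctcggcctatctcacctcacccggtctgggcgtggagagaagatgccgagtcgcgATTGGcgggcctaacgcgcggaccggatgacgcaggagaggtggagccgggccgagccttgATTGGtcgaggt

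In these windows *Hmgcs1* held the sterol regulatory element core from -137 to -129, between CCAAT boxes in reverse orientation, while *Insig1*, *Sc5d* and *Hsd17b7* each held an E-box, a CCAAT box and Sp1 letters but no match to TCACNCCAC. RefSeq promoter windows from 250 bases before to 50 bases after the start were found for 26 of the 32 genes, in 35 windows, and not for *Fdps*, *Fdft1*, *Sqle*, *Stard4*, *Scd1* and *Scd2*. TCACNCCAC occurred in 1 of the 35 windows (2.86%), that of *Hmgcs1*, and in 1.24% of all 32851 promoter windows of the mouse. CCAAT occurred in 62.9% of the 35 windows, against 37.4% of all, and GGGCGG in 71.4% against 35.7%. CACGTG occurred in 17.1% (6 windows, of *Dhcr7*, *Hsd17b7*, *Insig1*, *Sc5d* and *Scap*), against 7.15% of all. Some genes have more than 1 window, and those of *Scap* overlap, so that the same match can be counted more than once. No matches overlapped within the 4 sequences shown. A match is a description of the sequence and not of binding, and binding was not measured here.

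A wider list of 61 genes around these pathways was read in the same fit, and 59 of them passed the filter on low values. Of these, 14 were lower and 4 were higher in rd6, which is 23.7% and 6.78%, against 11.6% and 11.4% of all genes, and their median log2 fold change was -0.09. The counts leaned on single libraries, with 10 genes higher without WT 4 and 9 lower without WT 1. Of the 10 further genes of sterol steps and of the turnover of sterol enzymes, 6 were lower and none was higher. The smallest *P* value in the list belonged to *Rnf145*, a sterol-regulated ubiquitin ligase of the endoplasmic reticulum. It ranged from 4876 to 5753 normalized counts in WT and from 2878 to 3787 in rd6, without overlap (log2 fold change -0.67, *q* = 4.08e-05 in limma).

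Of 10 genes tested for the esterification, storage and oxidation of sterols, 2 were higher (20%, against 11.4% of all genes). Another 2 were lower (20%, against 11.6% of all genes) and 6 did not pass. *Soat1*, which esterifies cholesterol for storage, rose from a median of 5643 to 8161 normalized counts without overlap (log2 fold change 0.56, *q* = 9.38e-05 in limma). *Nceh1*, a hydrolase of cholesteryl esters, fell from a median of 1766 to 1281 (-0.44, *q* = 0.00103 in limma). *Cyp27a1*, a mitochondrial sterol hydroxylase, fell from a median of 1495 to 711 (-0.98, *q* = 0.000433 in limma) and was the 1 gene of the wider list that passed both the test and the stricter limit of 0.81. *Ch25h*, a cholesterol hydroxylase of low level (6.90 to 51.5 normalized counts in WT and 18.1 to 81.4 in rd6), had a larger log2 fold change of 1.08 but did not pass the test (*q* = 0.117 in limma). *Cyp7b1*, a hydroxylase of oxysterols, rose from a median of 383 to 497 (0.36, *q* = 0.0132 in limma).

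Of 18 genes of acetyl-CoA supply and lipogenesis, 3 were lower (16.7%, against 11.6% of all genes), 1 was higher (5.56%, against 11.4%) and 14 did not pass. *Elovl6*, which elongates palmitate to stearate, the substrate of the SCD enzymes, ranged from 2643 to 3763 normalized counts in WT and from 1772 to 2184 in rd6 (log2 fold change -0.65, *q* = 0.000201 in limma). *Elovl5*, an elongase of polyunsaturated fatty acids, fell from a median of 3875 to 3036 (-0.33, *q* = 0.00182 in limma). *Acsl3*, which activates fatty acids for lipid droplets, fell from a median of 4139 to 2792 (-0.49, *q* = 0.00356 in limma). The gene that rose was *Mlxipl*, for a glucose-responsive activator of lipogenic genes, from a mean of 68.4 to 98.8 normalized counts (0.58, *q* = 0.0359 in limma). Of 7 genes tested among LXR partners and targets, 2 were lower (28.6%, against 11.6% of all genes) and 1 was higher (14.3%, against 11.4%). Their median log2 fold change was 0.14. *Lpcat3*, an LXR target that loads polyunsaturated chains into phospholipids, was 1651 to 1737 normalized counts in WT and 1194 to 1649 in rd6 (-0.31, *q* = 0.0063 in limma), the opposite direction to *Mylip*. In the same set *Abcg1* (0.65, *q* = 0.228 in limma) and *Smpdl3a* (0.14, *q* = 0.299 in limma) had estimates in the direction of *Mylip* without passing. None of the 10 genes of the isoprenoid branch passed, and 1 of the 4 genes that cleave or carry SREBP did (*Mbtps2*, log2 fold change -0.41, *q* = 0.037 in limma).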

How the data were processed

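RPE RNA of 6 WT and 6 rd6 mice was compared, with groups and replicate numbers taken from the sample labels. The authors aligned stranded total-RNA reads to mm10, counted them with Rsubread under standard parameters and normalized them with DESeq2 (versions are not given in the sources used here). The deposited signal per gene and library is the count divided by the size factor of the library (largest to smallest, 1.23 times), with its mean over libraries. The authors also deposited a log2 fold change with its standard error, a Wald statistic (a score) and a p-value with its adjusted form, none of which were used here. The table has 28596 entries for 28591 genes; 4 identifiers were repeated, and 5 entries were dropped. All values were whole multiples of 1 read (within 0.001 reads), which gave the counts behind them. No library was a copy of another (chi-square per gene at least 9.25 in all 66 pairs).

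The test was limma 3.58.1 (R 4.3.3; lmFit, eBayes with trend) on log2(value + 1), over 17768 genes with a mean of at least 10 and with Benjamini-Hochberg adjustment over all of them. Fold changes are on this scale and slightly understate those of low genes. Ratios were compared with exact permutation tests. Alternatives were other pseudocounts (0.1 and 10), a filter left out or set to at least 10 per library, TMM and upper-quartile rescaling, edgeR 4.0.16 with TMM and DESeq2 1.42.0 on the recovered reads, a replicate block, leaving out each library, and, added after seeing the data, leaving out 3 libraries rich in corneal RNA. The tests were checked on simulated data. P-values measure the spread between these libraries, and the floor of 3 reads covers counting error only.

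All 32 genes are named; those that passed, and *Srebf1*, *Srebf2*, *Insig1*, *Scd1*, *Scd2*, *Nr1h2* and *Nr1h3*, also with lowest, median and highest library. From the wider list the 8 called genes with the smallest p-values are named. Further genes were chosen once their values had been seen: *Mbtps2*, *Cyp7b1*, *Ch25h*, *Mlxipl*, *Abcg1*, *Smpdl3a*, *Adipoq*, *Plin1*, *Lep*, *Plin4*, *Fabp4*, *Best1* and the called RPE markers. Of the marker lists, the gene with the highest mean was *Ttr* for RPE (log2 fold change 0.25), *Csf1r* for microglia and macrophages (0.12), *Slc24a1* for rods (-0.78), *Apoe* for Mueller glia and astrocytes (0.40; 2 of 10 higher and 2 lower), *Pmp22* for myelinating glia (-0.32; 1 of 9 higher and 4 lower), *Slc7a10* for adipocytes (-0.18; 1 of 4 higher), *Plvap* for endothelium (0.93), *Dcn* for fibroblasts (-0.63; 1 of 9 lower), *Krt5* for the corneal surface (2.49; none of 8 called) and *Myh4* for skeletal muscle (0.92). The genes and lists were chosen with earlier results of these data known. Coordinates and exon lengths are from GENCODE M21 (GRCm38), which holds 28510 of the 28591 genes. Some genes of these pathways are not reported here, and protein sequences were not used.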

Additional observations from a re-analysis of the deposited data

Results flagged for a closer look

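In 5 of the 64 sets of 6 libraries examined (32 genes in 2 genotypes), 1 library lay far from the other 5 by Dixon's criterion on the gap to the nearest library; chance alone gives this in about 1 set in 20. WT 4 was high in 4 of them: *Fdps* at 305 normalized counts (the others from 121 to 155), *Nsdhl* at 1136 (764 to 886), *Acly* at 4946 (3499 to 3854) and *Pmvk* at 967 (802 to 858). The remaining set was *Fdps* in rd6, with rd6 5 at 305 and the others from 114 to 174. WT 4 and rd6 5 were also the 2 libraries with the highest summed corneal and conjunctival markers (261061 and 128591 normalized counts), and the part of that RNA in these values was not tested. None of the 4 genes was among those called between the genotypes over all 12 libraries.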

How the results depend on the processing

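Over 22 alternatives, *Srebf1*, *Hsd17b7*, *Sc5d*, *Scap*, *Fasn* and *Mylip* stayed past the threshold in all, *Scd2* in all but 1, *Acaca* in all but 4 and *Srebf2* in all but 7. Of 704 single-gene comparisons, 656 stayed on the same side of 0 and of the threshold, 12 lost and 11 gained a call, and 25 changed sign, all in 10 genes that were not called. Lower calls numbered 6 to 9 of the 32 genes. Higher calls numbered 2 under upper-quartile rescaling and 1 to 2 when a library was left out. Upper-quartile rescaling also ended the calls of *Srebf2* (*q* = 0.0596) and *Acaca* (0.0548) and took the log2 fold change of *Fdft1* to 0.0056. In the wider list, leaving out a library gave 3 to 10 higher and 9 to 16 lower genes.

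In a fit with a replicate block, 6 of the 32 genes were lower, *Srebf2* (*q* = 0.0904) and *Scd2* (0.0562) no longer passed, and 2 genes of the wider list were higher. The *Srebf1* to *Srebf2* ratio kept its difference of -0.46, with an adjusted exact permutation *P* of 0.0938, the smallest that 6 pairs allow over 3 ratios. The numbers did not pair the libraries: same-numbered libraries deviated with a mean correlation of -0.25 (from -0.74 to 0.31), and 0 of 12 correlated best with its own number.

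With 1 library left out, log2 fold changes ranged from -0.014 to 0.084 for *Mvk*, -0.078 to 0.12 for *Mvd*, -0.017 to 0.35 for *Fdps*, -0.099 to 0.022 for *Fdft1*, -0.025 to 0.085 for *Sqle*, -0.034 to 0.082 for *Dhcr7*, -0.20 to 0.11 for *Insig1*, -0.17 to 0.066 for *Stard4*, -0.089 to 0.011 for *Acly* and -0.013 to 0.052 for *Nr1h2*. The *Scd1* to *Scd2* difference ranged from 0.038 (without rd6 6) to 0.36 (without rd6 4), that of *Nr1h3* to *Nr1h2* from 0.16 to 0.27 and that of *Srebf1* to *Srebf2* from -0.51 to -0.42. The causes were not tested.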
